A study of Mus musculus with 60 samples.

Results

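The genes described here are 10 genes used as markers of endothelial cells, the flat cells that line blood vessels: Cldn5, Pecam1, Cdh5, Tek, Tie1, Kdr, Vwf, Car4, Ednrb and Stab2. They were found on the array by matching the RefSeq accession of each probe to a gene symbol, which gave 13 probes of 55681, and 10 of the 20018 symbols with a probe. Cldn5 (NM_013805), Pecam1 (NM_001032378), Cdh5 (NM_009868), Tek (NM_013690), Tie1 (NM_011587), Vwf (NM_011708) and Stab2 (NM_138673) had 1 probe each. Kdr (NM_010612), Car4 (NM_007607) and Ednrb (NM_007904) had 2, of which the probe with the brighter Cy5 signal over the 60 arrays is called the lead probe or probe 1.

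Male Muta™Mouse, a transgenic strain that carries a bacterial lacZ reporter in all groups, were about 10 weeks old and received benzo(ghi)perylene (BghiP), a polycyclic aromatic hydrocarbon, in olive oil by daily gavage for 28 days. The doses were 0 (D0, olive oil alone), 6.25 (D1), 12.5 (D2) and 25 (D3) mg/kg-bw/day, with 5 mice per dose. Lung, liver and forestomach of each mouse were taken 72 h after the last dose, so the 20 mice gave 60 arrays in 12 groups. RNA came from random sections of whole tissue, and each sample (Cy5) was hybridized against universal reference RNA pooled from 11 mouse cell lines (Cy3). Values are log2 ratios of tissue over reference, so they rank a gene between arrays and not one gene against another. In such bulk tissue, fewer endothelial cells and less RNA per endothelial cell cannot be told apart.

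Endothelial cells hold the vessel wall together with junction proteins, respond to growth factors through receptor tyrosine kinases, and take on a different form in each organ. The capillaries of the lung alveoli are thin and continuous, those of the liver are wide sinusoids with pores and strong scavenging activity, and the forestomach of the mouse is lined by a squamous epithelium over a vascular submucosa. ETS family transcription factors, which bind DNA at a GGAA core, are known to act at many endothelial promoters.

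The promoters of Tie1, Kdr, Cldn5 and Stab2 are shown because these genes held different places in the tissue comparison described next. Each is the RefSeq sequence on GRCm38.p6 from 250 bases before to 50 bases after the annotated start, read 5′ to 3′ on the strand of the gene: Tie1 at chr4:118489800-118490099 (−), Kdr at chr5:75978406-75978705 (−), Cldn5 at chr16:18776597-18776896 (+) and Stab2 at chr10:87007893-87008192 (−). Capitals mark GGAA, or TTCC for the same core on the other strand.
Tie1: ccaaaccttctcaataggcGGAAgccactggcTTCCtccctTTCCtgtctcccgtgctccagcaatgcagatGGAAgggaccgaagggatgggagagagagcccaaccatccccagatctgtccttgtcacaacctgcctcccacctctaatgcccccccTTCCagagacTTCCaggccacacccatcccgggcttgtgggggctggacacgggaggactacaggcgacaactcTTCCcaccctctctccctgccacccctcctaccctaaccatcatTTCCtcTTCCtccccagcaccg
Kdr: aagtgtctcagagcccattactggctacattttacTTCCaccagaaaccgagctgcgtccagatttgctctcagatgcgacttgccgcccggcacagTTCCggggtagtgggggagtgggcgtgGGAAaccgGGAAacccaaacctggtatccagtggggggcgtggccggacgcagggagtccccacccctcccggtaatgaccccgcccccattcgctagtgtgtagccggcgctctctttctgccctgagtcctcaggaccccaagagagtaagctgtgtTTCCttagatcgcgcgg
Cldn5: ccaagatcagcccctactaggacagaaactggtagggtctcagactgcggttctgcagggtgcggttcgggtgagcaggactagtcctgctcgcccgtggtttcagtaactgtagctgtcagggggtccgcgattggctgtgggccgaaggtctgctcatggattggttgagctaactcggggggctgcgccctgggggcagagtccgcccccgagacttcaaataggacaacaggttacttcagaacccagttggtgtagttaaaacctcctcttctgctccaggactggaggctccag
Stab2: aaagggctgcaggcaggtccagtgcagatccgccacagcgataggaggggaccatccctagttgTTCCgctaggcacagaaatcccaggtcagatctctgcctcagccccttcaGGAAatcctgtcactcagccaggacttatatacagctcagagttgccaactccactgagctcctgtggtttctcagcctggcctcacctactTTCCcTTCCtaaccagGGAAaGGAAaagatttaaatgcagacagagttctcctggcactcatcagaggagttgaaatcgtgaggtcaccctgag
The Tie1 window held 9 such cores over both strands, and 1.59% of 32851 promoters of the same length held as many. Kdr held 5, a number reached by 28.6% of promoters, and Stab2 held 6, reached by 15.7%. Cldn5 held 0, while 96.0% of all promoters had at least 1 core and their median was 3. Tek held 2, Car4 held 4 and Ednrb held 3, numbers reached by 84.6%, 46.3% and 66.3% of promoters. The GC box GGGCGG, found on either strand in 35.7% of promoters, occurred once in Cldn5 and at 2 places in Kdr. The motif TATAAA, in 13.6% of promoters, occurred in Car4 alone among the 7 members with a sequence, and AGATAA, in 11.2%, in Tek alone. No start-site sequence was used here for Pecam1, Cdh5 or Vwf. These matches describe letters in the window and say nothing of binding.

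Between 34.9 and 58.6% of probes were well above background in Cy5 on lung arrays, 36.3 to 48.3% on liver arrays and 21.2 to 53.3% on forestomach arrays. Lung and forestomach arrays shared slides 1 to 5, with 1 array of each dose and tissue per slide, and liver arrays lay on slides 6 to 8, so liver and slide cannot be told apart. On every slide the dose also fixed the column, so dose and column cannot be told apart either. Lung arrays all lay in row 1 and forestomach arrays in row 2 of their slides, so these tissues and the row cannot be told apart. The tissue labels held: genes of the lung alveolar epithelium were higher in lung than in liver for 6 of 7 tested in vehicle mice, and all 8 hepatocyte genes were lower. However, 4 arrays carried markers of another tissue far above the next array of their tissue. The lung of D0 mouse 1 had a mean log2 ratio of 4.55 over 8 skeletal muscle genes (next highest lung 0.16) and of 3.83 over the squamous epithelium genes (next 0.07). The lung of D3 mouse 20 had 4.25 over 8 hepatocyte genes (next 1.00). The forestomach of D0 mouse 2 had 4.43 over 7 alveolar epithelium genes (next 1.15), and that of D0 mouse 5 had 5.42 over the fat cell genes (next 3.69). Hepatocyte genes varied more gradually among forestomachs, from a mean of 0.00 to 4.60, and 10 of 20 arrays lay above 2. For the lead probes, called counts, D3 changes and relations with Cdh5 that passed are given with and without the 4 arrays. The same holds for the tissue differences of lead probes that they moved by over 1.5-fold. Further lists were not taken again without them, nor were the tissue differences and D3 changes of second probes.

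In vehicle mice, 8 of the 10 genes were higher in lung than in liver and the same number were higher in lung than in forestomach. The size ranged from 2.01-fold for Tie1 against liver to 43.7-fold for Cdh5 against forestomach. Stab2 went the other way and was 32.1-fold lower in lung than in liver. Kdr, by its lead probe, did not pass the test in either comparison. A gene was called when the adjusted p of limma was 0.05 or less and the change at least 1.5-fold, the thresholds of the study, and with this rule 44.4% of 33242 probes were called between lung and liver (25.4% higher and 19% lower in lung). Between lung and forestomach 33.3% were called (18.8% higher in lung), and between liver and forestomach 39.2% (18.2% higher in liver). The median difference of the 10 genes was 2.20 (log2) for lung minus liver, 2.42 for lung minus forestomach and 0.33 for liver minus forestomach, beside 0.06, 0.02 and −0.02 over all probes tested.

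**Figure D1:**
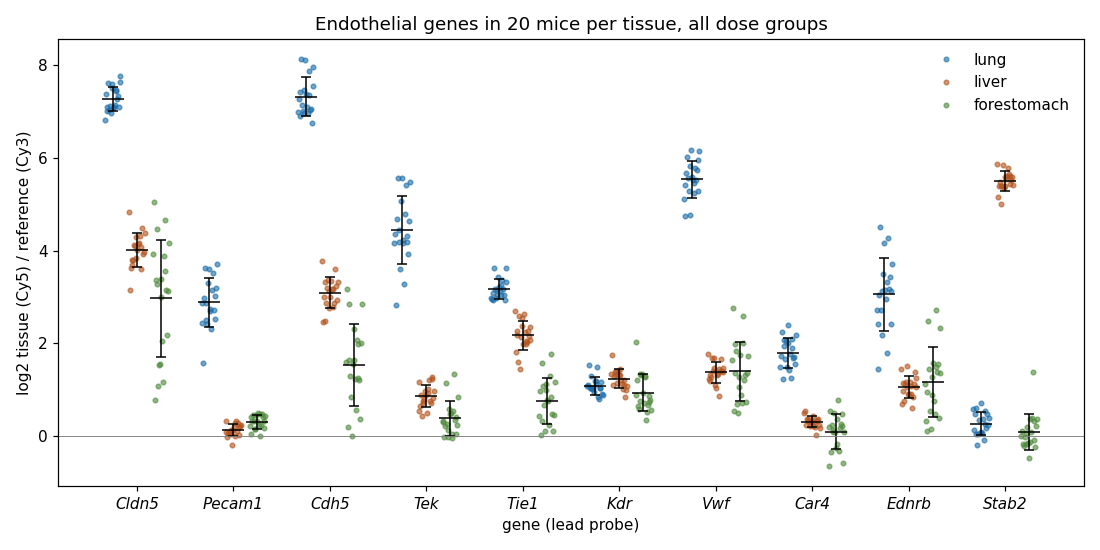
Log2 ratio of tissue RNA (Cy5) over reference RNA (Cy3) of the 10 genes by their lead probes, with 1 point per mouse (20 per tissue, all doses), the mean as a long bar and the SD as whiskers. Lung points lie above those of liver for Cldn5, Cdh5, Tek and Vwf, liver points alone are high for Stab2, and Kdr lies between 0.35 and 2.03 in all tissues.

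Cdh5 (VE-cadherin), the adhesion protein of endothelial junctions, had log2 ratios of 6.99, 7.27, 6.90, 7.42 and 8.12 in the lungs of vehicle mice 1 to 5. In liver the same mice had 3.77, 2.46, 2.99, 3.32 and 2.49, and in forestomach 1.59, 3.17, 0.21, 1.65 and 2.84. All lung values lay above all others, while liver and forestomach overlapped. Cdh5 was 20.1-fold higher in lung than in liver (log2 difference 4.33 ± 0.38 (SE), limma adjusted p = 1.22e-14) and 43.7-fold higher than in forestomach (5.45 ± 0.38, adjusted p = 1.41e-17). With the scanner program's processed signals these differences were 2.02 (adjusted p = 0.0106) and 3.88, still called. It was also higher in liver than in forestomach by 1.12 ± 0.38 (adjusted p = 0.0105), a call lost without vehicle mouse 1 (0.85), mouse 3 (0.70) or mouse 4 (0.98), with median centring (0.70) and with the Cy5 signals alone (0.33).

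Cldn5, a claudin of the tight junction, read 6.82, 7.37, 7.00, 7.09 and 7.61 in vehicle lungs, 4.82, 3.16, 3.63, 3.68 and 3.79 in liver, and 3.92, 5.05, 0.79, 3.37 and 4.46 in forestomach. The lungs stood above every other sample, and forestomach mouse 3 stood below every liver. The lung was 10.3-fold above liver (3.36 ± 0.47, adjusted p = 1.59e-08) and 12.6-fold above forestomach (3.66 ± 0.47, adjusted p = 4.37e-09). Both values depended on the signal used: with processed signals the difference from liver was 0.75 and was not called (limma adjusted p = 0.123), and that from forestomach was 1.33 and was called. Without mouse 3 the difference from forestomach was 3.02. Liver and forestomach differed by 0.30 in vehicle mice and were not called apart, but over all 4 doses the difference was 1.05 and passed.

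Pecam1 (CD31), an adhesion molecule of endothelial cells and platelets, read 2.43, 2.87, 1.57, 2.97 and 3.62 in vehicle lungs. The livers held −0.02 to 0.34 and the forestomachs 0.05 to 0.46. No lung reached down to these ranges, and Pecam1 was 6.00-fold above liver (2.58 ± 0.21, adjusted p = 1.16e-15) and 5.25-fold above forestomach. The probe was well above background on 3 of 5 vehicle forestomach arrays, so the size of the second fold rests partly on signals near background. Liver and forestomach differed by −0.19 and were not called apart.

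Among the receptor tyrosine kinases, Tek (Tie2), the angiopoietin receptor, read 4.16, 4.36, 2.82, 4.67 and 5.56 in vehicle lungs, 1.18, 0.55, 0.66, 0.89 and 0.43 in liver, and 0.30, 0.32, −0.01, 0.22 and 1.15 in forestomach. Lung lay wholly above both, by 11.9-fold over liver (3.57 ± 0.33, adjusted p = 5.46e-14) and 15.1-fold over forestomach. The probe was well above background on 1 of 5 vehicle forestomach arrays, so the size of the second fold rests mostly on signals near background, and on 4 of 20 at all doses, so it was not tested for dose there. In vehicle livers it was well above background on 3 of 5. Liver and forestomach differed by 0.35, which was not called, and by 1.59 with processed signals, which was (limma adjusted p = 0.0149).

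Tie1, the partner receptor of Tek, read 2.98, 2.95, 2.94, 3.09 and 3.63 in vehicle lungs, 2.69, 1.82, 2.26, 2.18 and 1.61 in liver, and 0.43, 0.98, 0.02, 0.33 and 1.57 in forestomach. The tissues did not overlap in this order, and each step was called: lung over liver by 1.00 ± 0.24 (2.01-fold, adjusted p = 2.09e-04), lung over forestomach by 2.45 ± 0.24 (5.47-fold) and liver over forestomach by 1.45 ± 0.24 (2.73-fold, adjusted p = 5.11e-07). The probe was well above background on 2 of 5 vehicle forestomach arrays, so the sizes of the folds over forestomach rest partly on signals near background. The lung value depended on the processing. With processed signals Tie1 was lower in lung than in liver (−1.97, adjusted p = 0.0104) and not called against forestomach (0.48, adjusted p = 0.589). With median centring in place of loess the difference from liver was 0.21 (adjusted p = 0.604).

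The Cy3 channel held the same reference RNA on every array, yet the Cy3 signal of some of these probes moved with the tissue. For Tie1 the median log2 Cy3 signal was 8.33 on lung arrays, 5.55 on liver arrays and 5.66 on forestomach arrays, and for Cldn5 it was 8.36, 5.57 and 5.86. For Vwf it was 9.28, 7.87 and 7.90. Over all probes the medians were 6.15, 5.82 and 6.13. The part of the Cy3 signal in the ratios was not tested. The Cy5 signals alone, quantile normalized, gave lung minus liver differences of 2.80 for Tie1, 5.97 for Cldn5 and 5.25 for Vwf, where the ratios gave 1.00, 3.36 and 4.04. They called 9 genes between lung and liver (39.2% of all probes), 8 for lung against forestomach (29.7%) and 2 for liver against forestomach (35.6%), where Cdh5 was no longer called, in a setting chosen after seeing the data.

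Kdr (VEGFR2), the main signalling receptor for VEGF, had 2 probes that disagreed. Probe 1 read 1.09, 1.10, 1.54, 1.03 and 1.03 in vehicle lungs, 1.35, 1.75, 1.11, 1.29 and 1.39 in liver, and 0.89, 2.03, 1.22, 0.65 and 0.59 in forestomach. These values overlapped: lung minus liver was −0.22 (95% interval −0.56 to 0.12, adjusted p = 0.262) and lung minus forestomach 0.08 (−0.26 to 0.43, adjusted p = 0.713). With median centring lung was called higher than forestomach by 0.92 and liver by 1.23. Probe 2 read 6.62, 6.70, 6.76, 7.39 and 7.80 in vehicle lungs, 5.80, 4.13, 5.45, 5.33 and 4.94 in liver, and 1.25, 3.12, 0.59, 2.15 and 2.80 in forestomach. The tissues did not overlap, with lung 3.80-fold above liver (1.93 ± 0.43, adjusted p = 1.03e-04) and 33.6-fold above forestomach (5.07 ± 0.43, adjusted p = 1.24e-14), and liver 8.85-fold above forestomach (3.15 ± 0.43, adjusted p = 8.53e-09). The reference signal also differed, with a median log2 Cy3 of 10.3 to 10.4 for probe 1 and of 5.30 to 6.18 for probe 2. Both probes carry the same accession, and the files do not say which part of the transcript each reads.

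**Figure D2:**
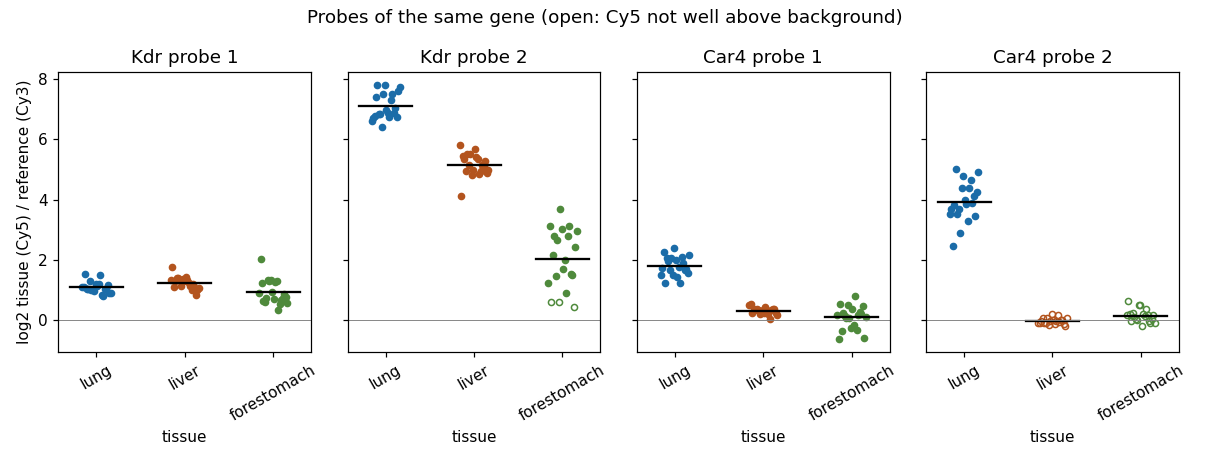
Log2 ratio of tissue RNA over reference RNA for both probes of Kdr and of Car4, with 1 point per mouse (20 per tissue) and the tissue mean as a bar. Open points are arrays on which Cy5 was not well above background. Kdr probe 1 is level near 1 in the tissues and probe 2 falls from 7.10 in lung to 2.04 in forestomach, while both Car4 probes are highest in lung.

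Vwf (von Willebrand factor), which endothelial cells store and release to hold platelets at a wound, read 5.11, 5.42, 4.75, 5.68 and 6.01 in vehicle lungs. It read 1.77, 1.24, 1.32, 1.19 and 1.28 in liver and 1.65, 2.76, 0.54, 1.37 and 1.99 in forestomach. Lung lay wholly above both, by 16.4-fold over liver (4.04 ± 0.28, adjusted p = 2.63e-18) and 13.3-fold over forestomach. Liver and forestomach overlapped and were not called apart (−0.30), but with processed signals forestomach was higher (−0.80, limma adjusted p = 0.00324). Genes of platelets and megakaryocytes, which also make Vwf and Pecam1, were higher in lung than in liver for 6 of 7 tested (median 2.66), and their part in these values was not tested.

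Car4, a carbonic anhydrase on the surface of lung capillaries, read 1.5, 1.74, 2.25, 1.23 and 2.07 by probe 1 in vehicle lungs, against 0.24 to 0.54 in liver and −0.63 to 0.54 in forestomach. Lung did not overlap with either and was 2.56-fold above liver (1.36 ± 0.20, adjusted p = 2.71e-08) and 3.38-fold above forestomach. Probe 2 read 3.51, 3.70, 2.47, 3.82 and 5.02 in vehicle lungs and was well above background on 0 liver and 0 forestomach arrays. By Cy5 signal it was therefore at least 12.7-fold higher in lung than in liver (limma adjusted p = 2.10e-18 on the ratios). Against forestomach the same reckoning gave 11.9-fold, but the log2 ratios differed by 3.46, or 11.0-fold, so that it is no lower limit there. Such a bound sets the mean of the bright group against the higher, on each array, of the dim probe's own signal and the lowest signal among probes well above background.

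Ednrb, the endothelin receptor type B, marks a large thin capillary cell of the alveolus in the mouse and is also made by other cells. Its lead probe read 2.71, 2.41, 1.46, 3.04 and 4.51 in vehicle lungs, 1.46, 0.70, 1.15, 0.98 and 0.75 in liver, and 1.12, 0.33, 0.11, 0.95 and 2.48 in forestomach. Lung mouse 3 met the top of the liver range and lung overlapped with forestomach mouse 5, but the means differed by 3.53-fold from liver (1.82 ± 0.41, adjusted p = 1.31e-04) and by 3.55-fold from forestomach (1.83 ± 0.41, adjusted p = 1.87e-04). In vehicle forestomachs the lead probe was well above background on 3 of 5 arrays and probe 2 on 1 of 5. The size of the fold over forestomach therefore rests partly on signals near background. Probe 2 was also highest in lung over all doses, with means of 2.93 in lung, 0.92 in liver and 0.91 in forestomach beside 3.06, 1.06 and 1.17 for the lead probe.

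Stab2 (stabilin-2), a scavenger receptor of liver sinusoids that clears hyaluronan, read 5.87, 5.15, 5.40, 5.47 and 5.01 in vehicle livers. In lung it read 0.58, 0.14, 0.49, 0.05 and 0.61, and in forestomach 0.00, 0.11, −0.16, −0.21 and −0.01. Liver stood wholly apart, 32.1-fold above lung (lung minus liver −5.01 ± 0.17, adjusted p = 3.1e-31) and 43.2-fold above forestomach (5.43 ± 0.17, adjusted p = 7.94e-33). The probe was well above background on 1 of 5 vehicle forestomach arrays, so the size of the second fold rests mostly on signals near background. Lung and forestomach differed by 0.43 ± 0.17 (adjusted p = 0.0357), which was under the minimum of 1.5-fold. With processed signals this difference was 1.32 and passed (limma adjusted p = 0.00505).

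By the lead probes, lung lay wholly above liver in vehicle mice for 7 genes, wholly below for Stab2, and overlapped for Kdr and Ednrb, where 28.1% of all probes lay wholly above and 22.2% wholly below. Lung lay wholly above forestomach for 7 genes (17.3% of all probes) and overlapped for Kdr, Ednrb and Stab2. Liver lay wholly above forestomach for Tie1 and Stab2 (18.9% of all probes), and for Stab2 alone once all 20 mice of each tissue were compared. Sizes moved with the processing. Over all settings tried, lung minus liver ran from 2.75 to 3.93 for Tek, 2.24 to 3.24 for Pecam1 and 3.72 to 5.25 for Vwf, and lung minus forestomach from 2.80 to 5.41, 1.98 to 2.80 and 3.19 to 4.75, while liver minus forestomach ran from 4.47 to 7.17 for Stab2. The spread within forestomach was wide, with an SD over 20 mice of 1.27 for Cldn5 against 0.26 in lung and 0.37 in liver, and of 0.88 for Cdh5 against 0.41 and 0.33. The 12 groups shared 1 estimate of the spread, so the errors given for forestomach are too small for such genes. Without the 4 arrays that carried markers of another tissue, a setting chosen after seeing the data, 9, 8 and 3 genes were called in the 3 comparisons, as with them. That setting keeps 9 of the 10 forestomach arrays with a hepatocyte mean above 2, and the part of liver RNA in the forestomach values was not tested. The forestomach of mouse 2, which carried alveolar markers, was the highest vehicle forestomach for Cdh5, Cldn5 and Vwf, and without these arrays lung minus forestomach was 6.28 for Cdh5 and 4.57 for Cldn5, and liver minus forestomach 1.86 and 1.12. By the lead probes, the differences of the other 8 genes moved by at most 0.55, and lung minus liver by at most 0.09 for any of the 10. The differences of Kdr probe 2 were not taken again without these arrays, and forestomach mouse 2 was also its highest vehicle forestomach (3.12).

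The wider lists of vessel genes were compared in the same vehicle mice. These lists were chosen with earlier results of these data known and share some genes. Their counts are therefore a description and not independent support. Of 32 other pan-endothelial genes, 28 were higher in lung than in liver and 0 lower (median 2.73), all 32 were higher in lung than in forestomach (median 2.69), and between liver and forestomach 13 were higher and 5 lower in liver (median 0.44). Cd34, a surface sialomucin, differed most among those measured in both tissues, by 5.28 ± 0.18 between lung and liver. Tmem100, a membrane protein of arterial endothelium, was not well above background in any vehicle liver and was at least 34.0-fold higher in lung. Of 15 genes of the VEGF and angiopoietin pathway that feeds Kdr and Tek, 11 were higher in lung than in liver and 0 lower (median 2.05), led by the ephrin ligand Efnb2 (4.70 ± 0.22) and the VEGF receptor Flt1 (4.38 ± 0.26). Against forestomach 12 were higher in lung and 0 lower. Of 7 tested genes of the endothelin pathway, 2 were higher in lung than in liver and 0 lower (median 0.31), a share close to the 25.4% of all probes. These were Edn1, the ligand of Ednrb, at least 4.49-fold higher since it was not well above background in any vehicle liver, and the type A receptor Ednra (1.19 ± 0.35, adjusted p = 0.00239).

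Lists of organ-specific vessel genes were set beside Car4 and Stab2. Of 16 further alveolar capillary genes, 15 were higher in lung than in liver and 0 lower (median 4.10), among them Prx (6.37 ± 0.23) and Emp2 (6.24 ± 0.27), which alveolar epithelium also expresses. Of 18 further liver sinusoidal genes, 9 were lower in lung than in liver and 3 higher (median −0.81), and 11 were higher in liver than in forestomach with 0 lower (median 1.40). The lectin Clec4g (−5.67 ± 0.24) and Oit3 (−3.78 ± 0.21) were the most reduced in lung. Lyve1, a hyaluronan receptor of lymphatic vessels and sinusoids that is also on the alveolar list, was higher in lung by 4.66 ± 0.58, and Fam174b by 3.13 ± 0.46. Clec4g was not well above background in any vehicle forestomach and was at least 91.1-fold higher in liver. Stab1, the close relative of Stab2, did not follow it, with vehicle means of 3.03 in lung and 3.07 in liver.

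Over the 12 group means, each centred on its own mean, 20140 probes were ranked by their root mean square difference from Cdh5, as a description. The closest 5 symbols were Adgrf5 (0.15), Cyyr1 (0.26), Ear2 (0.32), Sec14l3 (0.33) and Epas1 (0.34). Adgrf5, an adhesion receptor of lung endothelium and epithelium, had mean log2 ratios of 7.53 in lung, 3.37 in liver and 1.61 in forestomach, beside 7.32, 3.09 and 1.53 for Cdh5. Epas1, a hypoxia-inducible factor, had 8.78, 4.93 and 2.66. The nearest of the 10 genes was Cldn5 (0.64, position 28), followed by Tek (0.73) and Vwf (0.77), and Stab2 lay at position 19502 (3.89).

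The second question was whether BghiP changed these genes. No gene of the 10 passed the test at any dose in any tissue with limma, and the background was the same: 0% of all probes were called at D1, D2 or D3 in each tissue. The study, with MAANOVA at the same thresholds, reported differentially expressed genes for BghiP in each tissue, most of them at its high dose. The counts of 0 thus belong to the limma test and do not show that BghiP changed no gene. On the slope over the 4 doses, 0.239% of liver probes were called and 0% in lung and forestomach, and again none of the 10 genes. At an unadjusted p under 0.05 lay 2 of the 87 values of the lead probes at a single dose (2.3%), Kdr in liver at D3 and Stab2 in forestomach at D2, against 4.83% of all probes over the same 9 comparisons.

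In lung at D3 the 10 genes had a median change of 0.15 (log2), 7 were above 0, and they ranged from −0.15 for Kdr to 0.35 for Ednrb, all with adjusted p = 0.998. Pecam1 read 2.72, 3.02, 2.52, 3.20 and 3.70 in the D3 mice 16 to 20 and differed from vehicle by 0.34 ± 0.33. Vwf read 5.51, 5.73, 5.29, 5.96 and 6.14 and differed by 0.33 ± 0.24. On slides 1 to 5, which held 1 vehicle lung and 1 D3 lung each, D3 minus vehicle was 0.29, 0.15, 0.96, 0.22 and 0.08 for Pecam1 and 0.39, 0.31, 0.54, 0.27 and 0.13 for Vwf. These 2 lead probes were higher at D3 on all 5 slides, as 7.41% of tested lung probes were, and probe 1 of Kdr was lower on all 5, as 5.65% were. Cdh5, at 7.03, 7.04, 6.74, 7.54 and 7.95, differed by −0.08 ± 0.26, and was higher at D3 on 2 slides of 5.

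In liver at D3 the median change was 0.12 with 8 of 10 genes above 0 (49.9% of all liver probes) and a range from −0.33 to 0.26. The lead probe of Kdr read 1.21, 1.11, 0.85, 1.00 and 1.08, against 1.35, 1.75, 1.11, 1.29 and 1.39 in vehicle livers, and its difference of −0.33 ± 0.11 had an unadjusted p of 0.00549 and a limma adjusted p of 0.225. At D3 12.1% of liver probes had an unadjusted p under 0.05. Probe 2 of Kdr read 5.13, 5.12, 5.27, 4.89 and 4.97 and differed by −0.05 ± 0.23. The slope of probe 1 was −0.0134 ± 0.0039 per mg/kg-bw/day (adjusted p = 0.108), and with slide as a block it was −0.0150 ± 0.00352 and passed (adjusted p = 0.0336), where 2.62% of liver probes did. Stab2, the sinusoidal gene, differed by 0.13 ± 0.13.

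In forestomach at D3, 9 of the 10 genes were tested, their median change was −0.05, 4 were above 0 (52.2% of all forestomach probes), and the range was −0.39 for Vwf to 0.41 for Ednrb. The intervals were wide: Cldn5 changed by −0.28 with a 95% interval of −1.83 to 1.27, so that the interval held a 2-fold change either way. Without the 4 arrays with markers of another tissue, Cldn5 (0.54), Cdh5 (0.39), Tie1 (0.35) and Vwf (0.09) all lay above 0, and the values were 0.68 for Ednrb, 0.25 for Stab2, 0.16 for Pecam1, −0.20 for Kdr and −0.03 for Car4. The lowest value of Cldn5 with all arrays was −1.35 ± 0.74 at D1 (adjusted p = 0.57). Stab2, well above background on 1 of 5 vehicle and 2 of 5 D2 arrays, differed by 0.48 ± 0.22 at D2 (unadjusted p = 0.0386, limma adjusted p = 0.997), where 3.65% of probes had an unadjusted p under 0.05, and D2 mouse 15, at 1.39, was the highest of 20. The same array had the highest hepatocyte mean of the forestomachs, 4.60 in a range from 0.00, and the part of liver RNA in its Stab2 value was not tested. The difference between tissues in the D3 change was called for 0 of the 10 genes and for 0% of all probes, and its values ran from −0.26 to 0.25 for lung minus liver, −0.23 to 0.72 for lung minus forestomach and −0.27 to 0.54 for liver minus forestomach.

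**Figure D3:**
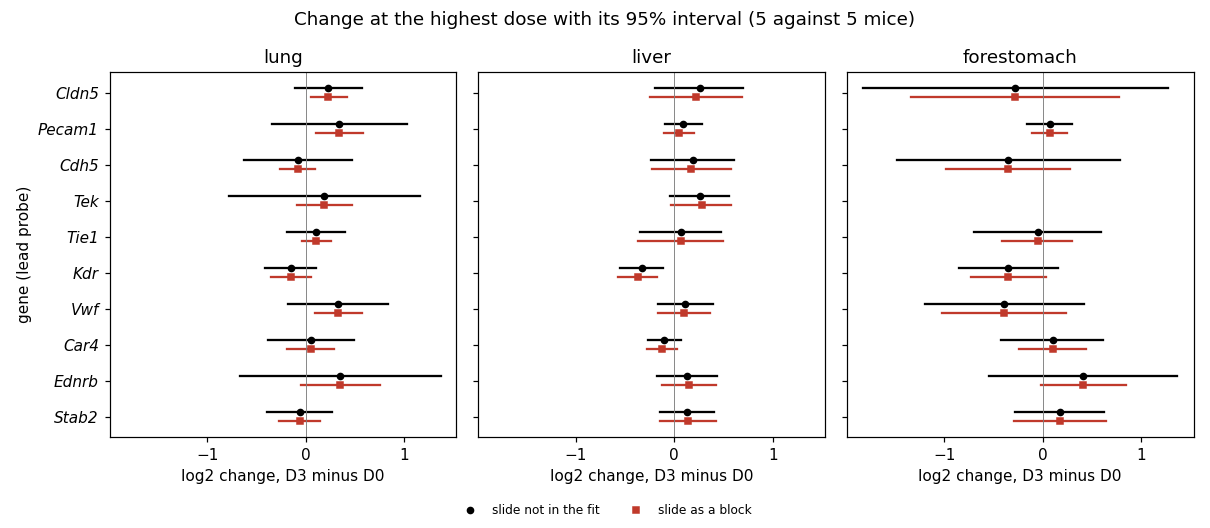
Log2 change of the lead probes between D3 and D0 (5 against 5 mice) in each tissue, as points with 95% intervals, from the fit without slide (black) and with slide as a block (red). The intervals of the lung narrow with slide in the fit, those of the forestomach are widest for Cldn5, and Tek was not tested in forestomach.

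As for all probes, 0 genes of the further lists were called at D3 in any tissue. The 32 other pan-endothelial genes had median changes at D3 of 0.12 in lung (22 of 32 above 0), −0.01 in liver (14 of 29) and −0.11 in forestomach (7 of 29). The alveolar capillary list had 0.15 in lung (12 of 16 above 0) and the liver sinusoidal list 0.04 in liver (10 of 17). Over all lung probes the median was 0.01 and 52.6% were above 0, where 49.9% were in liver and 52.2% in forestomach. The lung and forestomach list values include the 4 arrays with markers of another tissue and were not taken again without them. Among those arrays are the vehicle forestomachs of mice 2 and 5. Without them Cldn5, Cdh5, Tie1 and Vwf went from below to above 0 in forestomach at D3. The part of these arrays in the forestomach count of the list was not tested.

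Slide took up most of the spread between lungs. For Tek, Cdh5 and Pecam1 the slide accounted for 93.8, 93.5 and 91.6% of the sum of squares within doses, against a median of 59.5% over all lung probes, 27.2% in liver and 50% in forestomach. Mean log2 ratios of Tek on slides 1 to 5 were 4.19, 4.32, 3.41, 4.79 and 5.50, those of Cdh5 were 7.13, 7.10, 6.89, 7.44 and 8.01, and those of Ednrb 2.94, 2.98, 1.96, 3.24 and 4.17. Slide 3 was the lowest and slide 5 the highest for these 3 genes. Not every probe followed that order: probe 1 of Kdr averaged 1.32 on slide 3, its highest, and 0.98 on slide 5, and slide 3 was second highest for probe 1 of Car4 (1.95) and for Stab2 (0.42). The slide's part for probe 1 of Kdr was 55.8%, below the median of all lung probes. The share of probes well above background moved with it, from 34.9 to 44.3% on the lung arrays of slide 3 and from 57.9 to 58.6% on those of slide 5. On forestomach arrays of the same slides Cdh5 averaged 0.29 on slide 3 and 2.49 on slide 5, and 21.2 to 27.1% and 49.4 to 53.3% of probes were well above background. Slide and the mice placed on it cannot be told apart.

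**Figure D4:**
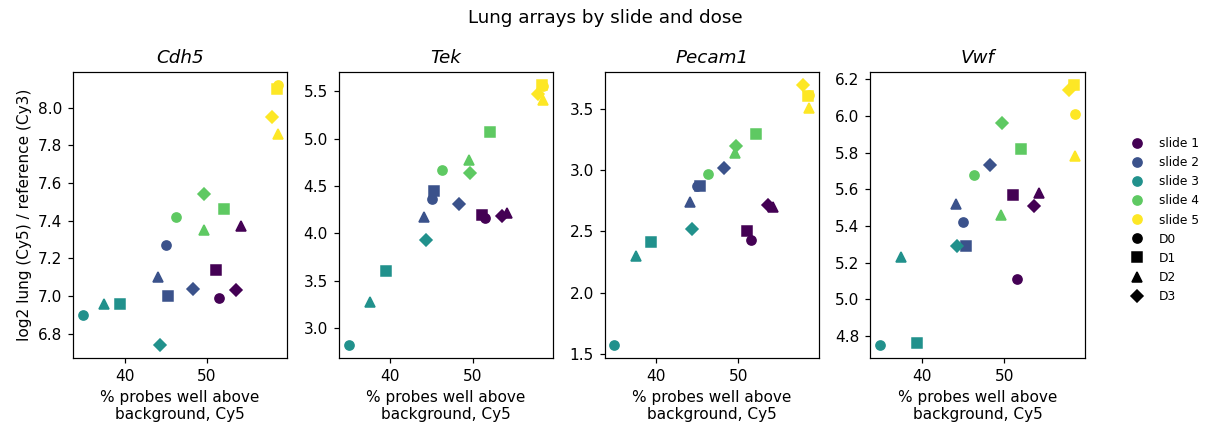
Log2 ratio of lung RNA over reference RNA for Cdh5, Tek, Pecam1 and Vwf on the 20 lung arrays against the percentage of probes well above background in Cy5, with slides as colours and doses as symbols. The 4 arrays of slide 5 sit at the upper right and those of slide 3 at the left, whatever the dose.

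With slide as a block the D3 changes in lung kept their size and their errors shrank. Pecam1 was then 0.34 ± 0.11 (adjusted p = 0.145), Vwf 0.33 ± 0.11 (adjusted p = 0.173), Cldn5 0.23 ± 0.09 (adjusted p = 0.208) and Car4 probe 2 0.41 ± 0.14 (adjusted p = 0.146). None was called, where 0.0677% of lung probes were, and 15.6% of lung probes had an unadjusted p under 0.05. Of the 10 lead probes, 3 had an unadjusted p under 0.05 in this fit. Without the 4 arrays with markers of another tissue and without the block, lung Tek, Tie1 and Car4 changed sign at D3, to −0.09, −0.03 and −0.10, and the values were 0.11 for Pecam1, 0.16 for Vwf, 0.06 for Cldn5, 0.18 for Ednrb, −0.34 for Cdh5, −0.14 for Kdr and −0.03 for Stab2. Single mice moved them too: Pecam1 was 0.06 without D0 mouse 3 and 0.57 without D0 mouse 5, Ednrb 0.01 and 0.77, and Vwf 0.17 and 0.48.

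Mice that were high for Cdh5 in lung were high for 6 of the 9 other genes by the lead probes. Over 20 mice, Pearson's r with Cdh5 was 0.901 for Tie1 (Spearman 0.863, permutation adjusted p = 6.5e-05), 0.878 for Tek (0.923), 0.852 for Pecam1 (0.885), 0.823 for Vwf (0.913), 0.823 for Ednrb (0.810) and 0.795 for Cldn5 (0.756). These 6 relations passed at an adjusted p of 0.05 or less over 26 relations in the 3 tissues (two-sided, 100000 permutations). The permutations moved mice freely between slides, in every tissue. Their p therefore cannot tell a relation between mice from one between slides. Without the 2 mice farthest from the median of Cdh5, the r of the 6 was 0.732 to 0.859. Without the lungs of mice 1 and 20, which carried markers of another tissue, it was 0.768 to 0.889. The lead probes of the other 3 genes did not pass by Pearson's r: Kdr had −0.461 (Spearman −0.520, adjusted p = 0.0318), Car4 0.350 and Stab2 0.323, or −0.424, 0.253 and 0.379 without those lungs. The second probes differed from these, at 0.904 for Kdr and 0.857 for Car4. Slides differed, so r was taken again with the means of dose and slide removed. It was then 0.615 for Cldn5, 0.602 for Vwf and 0.586 for Tie1, but −0.07 for Tek, 0.260 for Pecam1 and −0.111 for Ednrb. The lead probes that had not passed went to 0.614 for Car4, 0.308 for Kdr and −0.09 for Stab2. The second probes went to 0.482 for Kdr and 0.295 for Car4. No p was taken for r with these means removed. Among the other 31010 tested lung probes, 3310 had an r with Cdh5, before removal, of at least 0.795 in size, the smallest among the 6 that passed.

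In liver 4 of 9 relations with Cdh5 passed, where 4.55% of tested liver probes had an r of at least the smallest size that passed, 0.563. Cldn5 had r = 0.777, which was 0.880 with dose and slide removed and 0.717 without the 2 mice farthest from the median of Cdh5. Tek had 0.744, then 0.758 and 0.627. The sinusoidal gene Stab2 had 0.640 (permutation adjusted p = 0.00435), then 0.679 but 0.378 without the 2 mice, and Ednrb had 0.563, then 0.479 and 0.382, so both were lower without these mice. Pecam1, which had not passed at 0.429, had 0.741 with dose and slide removed. The other lead probes that had not passed then lay between −0.452 for Kdr and 0.424 for Tie1. In forestomach 6 of 8 relations passed, where 10.2% of tested probes reached the smallest size among them, 0.618. With dose and slide removed, r went from 0.837 to 0.601 for Cldn5, from 0.819 to 0.655 for Vwf, from 0.695 to 0.489 for Pecam1, from 0.737 to 0.401 for Tie1 and from 0.618 to −0.286 for Ednrb. Car4 ran the other way (−0.659 and −0.519). Without the 2 farthest mice the forestomach values were 0.794 for Cldn5, 0.734 for Vwf, 0.683 for Pecam1, 0.747 for Tie1, 0.825 for Ednrb and −0.528 for Car4. Without the forestomachs of mice 2 and 5 they were 0.780, 0.749, 0.679, 0.729, 0.815 and −0.668 in the same order, and probe 1 of Kdr, which had not passed, went from −0.178 to −0.641. With dose and slide removed probe 1 of Kdr had 0.608, and probe 2 had 0.790 with all forestomachs and 0.779 without those 2.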

How the data were processed

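RNA of lung, liver and forestomach from 20 mice was hybridized to Agilent mouse arrays, and the deposited scanner files (Feature Extraction 10.7.3.1, 62976 spots) hold intensities of Cy5 (sample) and Cy3 (reference) per spot. The table deposited by the authors holds log2 ratios, which their methods describe as median signals without background subtraction after LOWESS. It correlated at 0.992 to 0.999 per array with the log2 ratios computed here, with slopes of 0.983 to 0.998 and medians of −0.0413 to −0.0143, so its scale and direction were settled.

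Median signals were loess normalized within arrays in limma 3.58.1 (R 4.3.3). The 3671 control spots and flagged outliers (0.46% of values) were left out, spots of a probe were averaged, and no value was saturated. Probes were named through RefSeq accessions (26413 of 55681, 47.4%). A probe was tested in a tissue where its Cy5 signal was well above background on 5 or more of 20 arrays: 31011 in lung, 25889 in liver and 25037 in forestomach. Doses were fitted per tissue with lmFit and eBayes, where limma stands in for MAANOVA, which the study used. Tissues were compared over 12 groups in 1 fit of 60 arrays (33242 probes). Adjustment was by Benjamini-Hochberg over all tested probes, with calls at 0.05 and 1.5-fold, and no minimum for slopes on dose. The fits were tested on simulated data without slide effects, so these tests say nothing of how slide acts on the fits. The number of arrays limits the precision, with 5 per group.

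Mouse numbers in the labels name the animal, so a number marks the same mouse in all tissues. The fit with mouse as a block changed no call.

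Genes were named by a fixed rule: all 10 genes by their lead probe, the other probes where sign or call differed, and from each further list up to 2 called genes each way with the greatest difference between lung and liver in vehicle mice. Stab1 was named after its values were seen. The members and lists were chosen with earlier results of these data known.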

Additional observations from a re-analysis of the deposited data

Results flagged for a closer look

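In 9 of 156 sets of 5 mice (13 probes in 12 groups), 1 mouse stood apart from the other 4 by Dixon's test at the 95% level, where chance gives about 1 in 20. In liver, Pecam1 was 0.34 (log2 ratio) in D0 mouse 1, above −0.02 to 0.09 in the other mice, and −0.18 in D1 mouse 9, below 0.06 to 0.14. Vwf was 1.77 in D0 mouse 1 (others 1.19 to 1.32) and 1.67 in D3 mouse 17 (others 1.39 to 1.47). In lung, Tie1 was 3.63 in D0 mouse 5 (others 2.94 to 3.09), an array of slide 5, probe 1 of Kdr was 1.54 in D0 mouse 3 (others 1.03 to 1.10), an array of slide 3, and probe 2 of Ednrb was 2.02 in D3 mouse 18 (others 3.28 to 3.57), also of slide 3. In forestomach, D0 mouse 5 had 1.15 for Tek (others −0.01 to 0.32) and 2.50 for probe 2 of Ednrb (others 0.14 to 0.54), and it is the array that carried fat cell genes at 5.42.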

How the results depend on the processing

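Among the recomputed counts of called genes, 500 stayed within 1.5 times the main count, and 2 did not: 5 in place of 3 for liver minus forestomach with processed signals and 1 in place of 0 for the liver slope with slide as a block. Most of these counts were for dose, where the main count was 0 and almost no probe was called, so they could hardly move. Counts also hide moves of single genes: 8 gene values lost their call and 10 gained one. Cldn5 lost its call for lung minus liver with processed signals. With mouse as a replicate block, 9, 8 and 3 genes were called between the tissues, as without it. Sign changes were otherwise those of values called in neither fit, except Tie1 for lung minus liver, −1.97 with processed signals against 1.00, and Kdr, 1.93 by its second probe against −0.22. Cause was not tested for any of them. With normexp, Cdh5 in lung at D3 was 0.01 and Ednrb for liver minus forestomach −0.05. With processed signals, lung values at D3 were 0.43 for Cdh5, −0.07 for Ednrb, 0.04 for Stab2 and −0.03 for Car4, Tie1 was −0.20 in liver, forestomach values were 0.18 for Tie1, 0.02 for Cdh5 and −0.06 for Pecam1, and Ednrb for liver minus forestomach was −0.03. With median centring the median of all probes at D3 was 0.33 in forestomach and 0.26 in lung, against 0.01 in both with loess. It gave lung values at D3 of 0.32 for Cdh5, 0.08 for Stab2 and 0.31 for Kdr, liver values of 0.00 for Tie1 and 0.07 for Car4, forestomach values of 0.04 for Vwf and 0.27 for Kdr, and liver minus forestomach values of 0.05 for Vwf and −0.12 for Ednrb. The second probe gave 0.15 for Kdr in lung at D3 and −0.29 for Car4 in liver minus forestomach, and the mean over 4 doses gave −0.10 for Ednrb. Cy5 alone gave −0.01 for Tie1 in lung and −0.30 for Car4 in forestomach at D3, and −0.56, −0.10 and −0.24 for Cldn5, Ednrb and Car4 in liver minus forestomach. Without the 4 arrays with markers of another tissue, a setting chosen after seeing the data like the Cy5 signals, D3 values were −0.03, −0.10 and −0.09 for Tie1, Car4 and Tek in lung and 0.09, 0.35, 0.54, 0.39 and −0.03 for Vwf, Tie1, Cldn5, Cdh5 and Car4 in forestomach, and Vwf was 0.17 in liver minus forestomach. Leaving out 1 mouse at a time moved D3 values in lung from −0.25 to 0.12 for Cdh5, −0.08 to 0.18 for Car4 and −0.18 to 0.50 for Tek, in liver from −0.06 to 0.21 for Tie1, and in forestomach from −0.22 to 0.17 for Tie1, −0.97 to 0.10 for Cldn5, −0.06 to 0.27 for Car4, −0.67 (without D0 mouse 3) to −0.12 (without D0 mouse 2) for Vwf and 0.18 (without D3 mouse 20) to 0.78 (without D0 mouse 5) for Ednrb. Between tissues it moved Kdr from −0.01 to 0.34 (lung minus forestomach), and in liver minus forestomach Vwf from −0.58 to 0.00, Cldn5 from −0.34 to 0.84 and Ednrb from −0.25 to 0.45.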

Other observations

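Other vessel genes also differed between the vehicle tissues. Beside the counts below, 25.4% of all probes were called higher and 19% lower in lung than in liver. Of 10 arterial and venous genes, 8 were higher in lung than in liver and 1 lower (median 2.54). Hey1, a Notch target of arteries, was 4.97 ± 0.21 higher, and Ackr1, a chemokine receptor of venules, was 0.19 in lung and 0.90 in liver (−0.71 ± 0.26, limma adjusted p = 0.0156). Of 7 genes of endothelial activation, 6 were higher in lung and 0 lower (median 1.81), led by Thbd, the thrombomodulin that restrains clotting (6.29 ± 0.31), and the adhesion molecule Vcam1 (2.75 ± 0.26). Of 6 lymphatic genes, 3 were higher and 2 lower in lung. Pdpn, which alveolar epithelium also expresses, was higher by 4.30 ± 0.14 and Mmrn1 by 3.15 ± 0.46. Prox1, which hepatocytes also express, was not well above background in any vehicle lung and was at least 5.86-fold higher in liver, and Reln at least 1.94-fold.

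Mural cells wrap the endothelium. Of all probes, 25.4% were called higher and 19% lower in lung than in liver. Between liver and forestomach 18.2% were higher and 21% lower in liver, and 14.5% were lower in lung than in forestomach. Of 9 of their genes, 6 were higher in lung than in liver and 2 lower (median 1.95), and 0 were higher and 6 lower in liver than in forestomach (median −1.93). Notch3 (3.78 ± 0.25) and Pdgfrb (2.73 ± 0.14) were higher in lung than in liver, while Abcc9 (−1.71 ± 0.61) and Rgs5 (−1.23 ± 0.47) were lower. Rgs5 had vehicle means of 1.18 in lung, 2.41 in liver and 4.34 in forestomach. Of the lists for other cell types, macrophage genes were higher in lung than in liver for 3 of 6 and lower for 2, with Clec4f and Cd5l, genes of liver macrophages, lower by more than Marco was higher (−6.22 and −6.18 against 2.34). Squamous epithelium genes were lower in lung than in forestomach for 7 of 8 (median −4.48).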
